A study of Mus musculus with 2 samples.

Results

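The histone genes described here were 71 of the 20665 autosomal protein-coding RefSeq genes. They were chosen by symbol alone. The symbols were those starting Hist1h, Hist2h, Hist3h or Hist4h and the newer H1f, H2ac, H2bc, H3c and H4c followed by digits. The H1f symbols also take in H1f0, H1f7, H1f8 and H1f10, each of which lies away from other members. Of the 71 members, 4 are of testis type, 1 is of oocyte type, 2 encode linker histones made outside of replication, and the other 64 are called core genes here. DNA methylation was measured by whole-genome bisulfite sequencing in the epiblast of wild-type C57Bl6/J mouse embryos of genotype XX at embryonic day 6.5. The epiblast, the embryonic layer that forms the fetus, was dissected by hand from embryos of natural matings that had not been cultured. The labels list 2 samples, and the deposited counts do not keep them apart. No replicate error can be given, therefore, and no p-value was computed. Methylation carries no transcript markers, so the identity of the dissected layer was not tested.

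Replication-dependent histone genes supply the bulk of histone protein while a cell copies its DNA. They are short, lack introns, occur in many copies in a few clusters, and their mRNAs end in a stem-loop in place of a poly(A) tail. Germ cells also use variants of their own: TH2A and TH2B, encoded by H2ac1 and H2bc1, and the linker histone H1t, encoded by H1f6, enter chromatin during spermatogenesis. H1f7 encodes a linker histone of spermatids and H1f8 the linker histone of oocytes.

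In this epiblast most core genes were almost unmethylated and the testis-type genes were not. Over the gene with 500 bp on either side, the 4 testis-type genes had a median methylation level of 52.8%, against 4.57% for the 60 measured core genes. The testis-type median lies midway between H2ac1 and H2bc1, neighbors whose windows overlap, and H1f7 was higher at 81.3%. The testis-type genes H2ac1, H2bc1 and H1f6 stood at intermediate levels of 44.7% to 55.2% although they lie on the same chromosome as most core genes, and H1f6 lies inside one of their clusters. A level is the share of read counts at CpGs that were methylated. A gene was measured with at least 5 CpGs read and at least 20 read counts. From its exact Clopper-Pearson 95% interval a gene was called low (all of it under 20%), high (all of it over 60%), intermediate (all of it from 20% to 60%) or else unresolved. Intervals follow levels in parentheses, cover counting error at most and treat each count as separate. Reads carry no molecular identifiers and 1 read can count at more than 1 CpG. The intervals, and the calls made from them, can therefore be too narrow even for counting error.

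On the autosomes 89.9% of CpGs had a read, with a median of 6 counts per CpG and a level of 66.3%. On the Y chromosome 0.970% of CpGs had a read. Measured core genes rested on 116 to 2400 read counts, with a median of 410, and the median width of their intervals was 4.77 percentage points. Of the 71 members 67 were measured. H2bc23 had 1 read count, H4bc24 had 4, and H2ac23 and H2ac24 had none.

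The DNA at the starts of these genes shows what was read. The stretch between the starts of H2bc1 and H2ac1, which point away from each other, is set beside the stretch between the core pair H2ac11 and H2bc11, both on the plus strand of mm10. The 250 bases before the start of the testis-type linker gene H1f6 are set beside those of its core neighbor H4c3, an H4 gene, and of H1f4, a core linker gene. H1f7 is shown as the testis-type gene with the highest level. H2bc1 to H2ac1 is chr13:23934157-23934436 and H2ac11 to H2bc11 is chr13:22042950-22043197. H1f6 is chr13:23695561-23695810 on the plus strand, and on the minus strand H1f7 is chr15:98257308-98257557, H4c3 chr13:23698459-23698708 and H1f4 chr13:23622559-23622808. Sequences are from RefSeq for GRCm38.p6, 5′ to 3′, with each CpG in capitals.
H2bc1 to H2ac1: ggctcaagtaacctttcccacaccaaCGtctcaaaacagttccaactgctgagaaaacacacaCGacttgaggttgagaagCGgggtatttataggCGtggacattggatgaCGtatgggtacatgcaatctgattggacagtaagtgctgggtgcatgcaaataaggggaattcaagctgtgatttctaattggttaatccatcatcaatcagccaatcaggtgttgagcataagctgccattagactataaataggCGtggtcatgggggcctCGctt
H1f6: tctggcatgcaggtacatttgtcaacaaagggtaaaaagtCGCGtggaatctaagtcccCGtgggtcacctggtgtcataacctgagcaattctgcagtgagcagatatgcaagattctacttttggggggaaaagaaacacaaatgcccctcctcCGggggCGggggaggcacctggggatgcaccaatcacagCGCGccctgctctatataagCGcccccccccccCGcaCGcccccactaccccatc
H1f7: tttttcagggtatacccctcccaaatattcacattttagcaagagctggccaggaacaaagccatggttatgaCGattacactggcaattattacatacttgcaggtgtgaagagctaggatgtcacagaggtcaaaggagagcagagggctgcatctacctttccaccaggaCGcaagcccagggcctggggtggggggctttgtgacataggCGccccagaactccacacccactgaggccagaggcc
H2ac11 to H2bc11: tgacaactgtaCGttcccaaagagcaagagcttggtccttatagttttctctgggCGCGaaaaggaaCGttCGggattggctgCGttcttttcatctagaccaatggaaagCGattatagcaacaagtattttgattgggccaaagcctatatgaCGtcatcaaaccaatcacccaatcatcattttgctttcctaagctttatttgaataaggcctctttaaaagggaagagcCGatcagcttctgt
H4c3: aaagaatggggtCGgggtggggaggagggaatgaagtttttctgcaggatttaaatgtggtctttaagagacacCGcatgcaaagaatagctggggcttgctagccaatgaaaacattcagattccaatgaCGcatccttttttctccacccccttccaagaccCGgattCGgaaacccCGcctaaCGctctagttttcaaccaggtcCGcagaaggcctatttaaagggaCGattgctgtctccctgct
H1f4: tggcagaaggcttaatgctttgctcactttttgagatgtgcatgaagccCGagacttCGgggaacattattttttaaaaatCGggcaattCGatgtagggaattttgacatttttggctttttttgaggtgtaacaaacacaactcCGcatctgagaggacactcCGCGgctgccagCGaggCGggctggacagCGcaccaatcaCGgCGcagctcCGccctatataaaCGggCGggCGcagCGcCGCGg

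The stretch between H2bc1 and H2ac1 holds 7 CpGs and was methylated at 51.0% (41.0 to 60.9%), or 53 of 104 read counts. From left to right its CpGs had 6 of 17, 8 of 21, 10 of 19, 10 of 16, 10 of 14, 3 of 8 and 6 of 9 counts methylated, so each of them had methylated and unmethylated reads. The stretch between H2ac11 and H2bc11, with 9 CpGs, had 3 of 87 counts methylated, a level of 3.45% (0.717 to 9.75%). Before H1f6 the level was 37.8% (23.8 to 53.5%) over 45 counts, and its first 3 CpGs had 13, 13 and 11 of these counts, so the part nearest the start was hardly read. Before H1f7 it was 76.2% (52.8 to 91.8%) over 21 counts at 3 CpGs. Before H4c3 only 1 of 92 counts was methylated, a level of 1.09% (0.0275 to 5.91%), and before H1f4 the level was 11.2% (7.09 to 16.7%) over 187 counts at 19 CpGs. H4c3 was chosen for its place beside H1f6 after its value was seen.

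**Figure D1:**
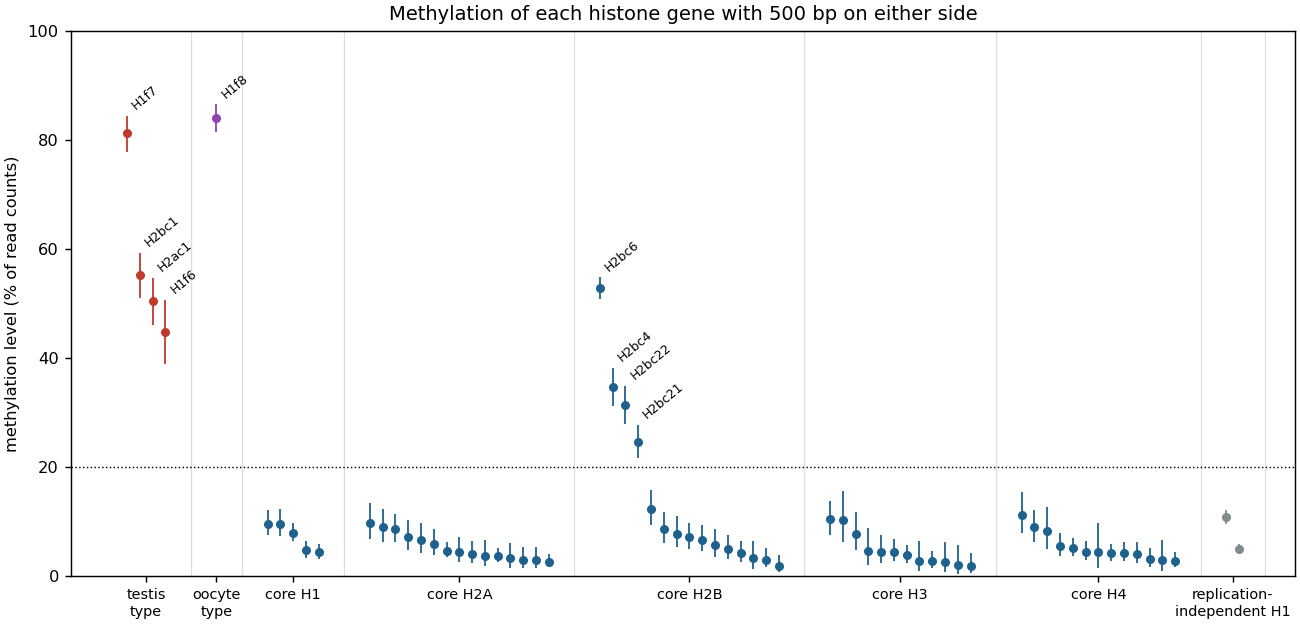
Methylation level in percent of read counts (y axis) of each of the 67 measured members with 500 bp on either side, grouped by type and class and ordered by level within a group. Bars are exact Clopper-Pearson 95% intervals and the dotted line marks 20%; the testis-type and oocyte-type genes and 4 H2B genes lie above the line, and all other members lie below 20% with their whole interval.

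Among testis-type members, H2ac1 (TH2A) stood at 50.4% (46.1 to 54.7%), from 271 of 538 counts at 50 CpGs. H2bc1 (TH2B) stood at 55.2% (51.1 to 59.3%), from 317 of 574 counts at 64 CpGs, and the windows of these neighbors overlap. H1f6 (H1t) stood at 44.7% (38.9 to 50.6%), from 131 of 293 counts at 39 CpGs. These 3 genes were intermediate. H1f7, on chromosome 15 away from other members, was high at 81.3% (77.8 to 84.5%), from 443 of 545 counts. The oocyte gene H1f8 on chromosome 6 was high as well, at 84.1% (81.4 to 86.6%) over 812 counts. By contrast, the linker genes expressed outside of replication were low. H1f10, which encodes H1x, had 4.89% (4.08 to 5.81%), and H1f0, which encodes the linker histone of non-dividing cells, had 10.7% (9.42 to 12.1%).

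The intermediate level of the chromosome 13 testis-type genes was present at single CpGs as well as in the sum over the window. Among CpGs with at least 5 counts, 30 of 47 in the H2ac1 window lay between 30% and 70%, as did 31 of 50 at H2bc1 and 13 of 28 at H1f6. At H1f7, 39 of 44 lay above 70%. Over the core genes of at most 1000 bp, 44 of 1923 such CpGs (2.29%) lay between 30% and 70%, none lay above 70%, and 1167 (60.7%) had no methylated read. With few reads per CpG, a single site's level is coarse. The strands gave somewhat different values: 55.9% on plus and 44.7% on minus at H2ac1, 59.0% and 50.8% at H2bc1, 37.7% and 49.2% at H1f6, and 84.5% and 74.7% at H1f7. On either strand every testis-type gene stayed above every core gene of at most 1000 bp. The highest of these core genes were H3c14 at 15.6% on plus and H4c17 at 19.6% on minus, the latter from 51 counts. The read counts do not tell cells or alleles apart.

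Of the 60 measured core genes, 56 were called low and 4 intermediate, with a median level of 4.57% (quartiles 3.54% and 8.24%). Among all 20015 measured autosomal protein-coding genes, histone genes included, 5.14% were low in the same kind of window, 33.9% were intermediate, 47.6% were high, and the median was 62.4%. That window takes in whole gene bodies, and histone genes are short. Among measured genes of at most 1000 bp, 56 of 56 core histone genes were low, with a median of 4.41% and a highest level of 12.3%. In all 1067 measured genes of that length 7.97% were low, 3.56% intermediate and 39.4% high. The 1008 other short genes measured had a median of 71.0% and 29 low calls. Of these, 524 were unresolved. Their median depth was 60 read counts per window, against 404 for the short core genes, which limits the calls they could get. Within 500 bp of the start, where 61.5% of all genes were low, 5.19% intermediate and 16% high and the median was 9.05%, all 55 core genes with a known start and enough reads were low, with a median of 4.17%. The testis-type genes had a median of 48.6% there.

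The core linker genes, which bind DNA between nucleosomes, had a median of 7.87% over 5 genes. H1f5 had 9.53% (7.40 to 12.03%) and H1f1 9.50% (7.24 to 12.2%), while H1f2 had 4.32% (3.09 to 5.86%) and H1f3 4.66% (3.27 to 6.42%). H1f4 lay between them at 7.87% (6.31 to 9.66%). The intervals of the upper and lower pair do not overlap, but all 5 genes were low.

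The H2A genes, which encode a partner of H2B in the nucleosome, had a median of 4.43% over the 15 of 17 that were measured. The highest were H2ac7 at 9.64% (6.69 to 13.3%) and H2ac6 at 8.89% (6.20 to 12.3%). The lowest were H2ac21 at 2.54% (1.56 to 3.90%) and H2ac11 at 2.91% (1.40 to 5.28%). H2aw, outside the large clusters on chromosome 11, had 4.60% (3.36 to 6.12%).

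The H3 genes had a median of 4.08% over 12 genes, and the H4 genes a median of 4.31% over 13. These classes encode the histones at the center of the nucleosome. H3c13 had 10.4% (7.55 to 13.8%) and H3c14 had 10.2% (6.14 to 15.6%), while H3c7 had 1.80% (0.587 to 4.15%) and H3c2 had 1.96% (0.406 to 5.62%). Of the H4 genes, H4c9 had 11.2% (7.85 to 15.4%) and H4c12 had 8.86% (6.25 to 12.1%). H4c8 had 2.71% (1.58 to 4.30%) and H4c2 had 2.86% (0.934 to 6.54%). H4f16, on chromosome 6 away from other members, had 4.11% (2.63 to 6.11%).

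The H2B genes had the highest class median apart from the linker genes, 7.02% over the 15 of 17 measured, and 5.57% over the 11 of at most 1000 bp. The lowest were H2bc11 at 1.79% (0.658 to 3.85%), which has the lowest level of all measured members, and H2bc8 at 2.96% (1.59 to 5.01%). H2bu2 on chromosome 11 had 4.87% (2.997 to 7.42%). Among the short genes H2bc7 was highest, at 12.3% (9.41 to 15.7%). Methylation there was uneven: the 500 bp before the start had 0.662%, the gene itself had 16.3% (11.2 to 22.6%) and the 500 bp past its end had 21.2%. H2bc13 likewise had 20.2% (13.4 to 28.5%) inside the gene, against 1.93% in the 500 bp before its start. H2bc7 and H2bc13 were singled out within their class after their values were seen.

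All 4 core genes not called low were H2B genes annotated over more than 2000 bp, which takes in DNA well beyond a histone coding sequence. They were H2bc6 at 52.8% (50.8 to 54.8%), H2bc4 at 34.6% (31.2 to 38.2%), H2bc22 at 31.3% (27.8 to 34.9%) and H2bc21 at 24.6% (21.6 to 27.7%). Each had at least 1 end with a low level. H2bc6 has 2 annotated starts, with 8.92% (5.80 to 12.98%) around the outer start and 2.26% (0.832 to 4.84%) around a start 35154 bp further in. Around the start of H2bc22 the level was 3.20% (1.47 to 5.99%). H2bc21 had 6.50% (4.49 to 9.06%) around its end of lower coordinate and 82.4% (71.2 to 90.5%) around the other. H2bc4 had 8.40% (5.78 to 11.7%) around its end of lower coordinate, and the other end did not have enough CpGs read.

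Testis-type and core genes of like CpG density differed in level. The windows of H2ac1 and H2bc1 held 3.39 and 4.47 CpGs per 100 bp, and those of H1f6 and H1f7 held 2.25 and 2.28, against a core median of 4.76. Among genes of at most 1000 bp with 3 to 4 CpGs per 100 bp, all 11 core genes were low with a median of 3.98%, against 3 low of 13 other genes with a median of 22.02%. At 4 to 5 CpGs per 100 bp all 19 core genes were low with a median of 4.38%, against 15 of 21 others with a median of 11.2%. Above that density all 26 measured core genes were low with a median of 4.51%, against 9 of 11 others with a median of 7.34%. By rising density, 5, 2 and 1 of the other genes were unresolved. No core gene of that length had fewer than 3 CpGs per 100 bp, so at the density of H1f6 and H1f7 no core value stands beside theirs. The 35 other short genes with 2 to 3 CpGs per 100 bp had a median of 71.9%. The core genes closest to H2ac1 in density, chosen after their values were seen, included H4c4 with 5.39% (3.55 to 7.80%) and H2bc18 with 7.02% (4.91 to 9.68%), both at 3.42 CpGs per 100 bp.

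**Figure D2:**
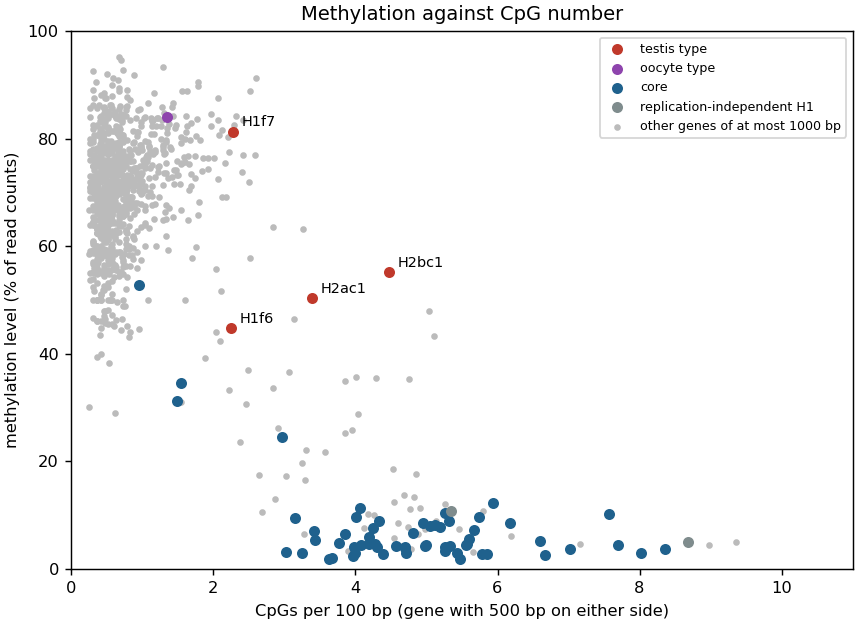
Methylation level in percent of read counts (y axis) against CpGs per 100 bp of the gene with 500 bp on either side (x axis), for measured members by type and for the 1008 other measured autosomal protein-coding genes of at most 1000 bp. Each point is 1 gene; H2ac1 at 50.4% and H2bc1 at 55.2% lie above every core gene of 3 or more CpGs per 100 bp.

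Over core genes of at most 1000 bp, the chromosome 13 windows summed to 5.73% (5.40 to 6.07%) and the chromosome 3 windows to 4.77% (4.15 to 5.45%). These sums count a CpG once for each gene window that holds it. With each CpG counted once they were 5.81% (5.46 to 6.19%) and 5.33% (4.60 to 6.13%), and the intervals overlap. Their medians were 4.49% over 44 genes and 4.12% over 9 genes, and every one of these genes was low. Within each cluster the DNA between the genes was methylated. On chromosome 3 the gene windows of the cluster had 9.06%, against 62.4% in the rest of its span. On chromosome 13 the cluster of 18 members had 11.3% in its windows against 60.2% outside them, the group of 5 had 5.81% against 54.5%, and the cluster of 29, which includes H1f6, had 15.8% against 64.4%. These windows include the long H2B genes. The pair on chromosome 11 had 4.68% against 28.4% between its genes. H2ac1 and H2bc1 form a locus of their own, separated from H1f1 by 169312 bp with a level of 75.1%, and their joint window had 55.0% (51.4 to 58.5%).

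Around core genes of at most 1000 bp the low level ended within a few kilobases. It was 4.92% inside the genes, 6.61% within 500 bp, 22.9% from 500 to 1000 bp and 65.4% from 1000 to 2000 bp, outside 500 bp of any member. From 2000 to 5000 bp it was 49.7% and from 5000 to 10000 bp 43.1%. With DNA near other genes left out those outer values were 69.4% and 51.9%. The first run of 5 read CpGs with at least 20 counts and a joint level of at least 50% began at a median of 1442 bp from a core gene's end, with quartiles of 845.5 and 2359 bp over 112 ends. The search for this run did not stop at neighboring members, whereas the flank values beyond 500 bp leave out DNA near them. Distances can therefore run through other low genes, and several ends can share a run, so the 112 ends are not separate. Toward lower coordinates, 848 bp at H2ac8 and 5948 bp at H3c4 lead to the same run. The longest distance, 14802 bp at H4c17, passes H2ac23, which had no read. The distance to the first such run was 5 and 7 bp at the ends of H2ac1 and 23 and 27 bp at those of H2bc1. It was 6 and 35 bp at the ends of H1f7. At H1f6 it was 191 bp on the side of H2bc4 and 5062 bp on the side of H4c3, whose unmethylated DNA lies between.

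Along the direction of transcription, H2ac1 and H2bc1 together had 52.3% in the 250 bp before the start, 41.8% to 50.6% in the first 4 of 5 equal parts of the gene, 82.4% in the last part on 17 counts, 71.0% in the first 250 bp past the end and 77.6% in the next 250 bp. The core genes had 4.23%, then 4.33% to 6.63% over the 5 parts of the gene, and 6.29% and 8.60% past the end. In these profiles a CpG counts once for each gene it lies near. Most CpGs between the starts of H2bc1 and H2ac1 therefore count for both genes, and the intervals do not allow for that. Core levels reached 41.0% at 1750 to 2000 bp before the start and 54.2% at 1750 to 2000 bp past the end. The profile leaves out CpGs inside other histone genes but keeps those within 500 bp of them. The flank values above leave out both, so the 2 sets of values are not alike. Among 35 core genes with enough reads on both sides, the 500 bp past the end had the higher level in 19 and the lower in 16. Medians were 4.95% before the start and 7.21% past the end, and the intervals did not overlap in 5 genes with the higher level past the end and 2 with the higher level before the start.

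**Figure D3:**
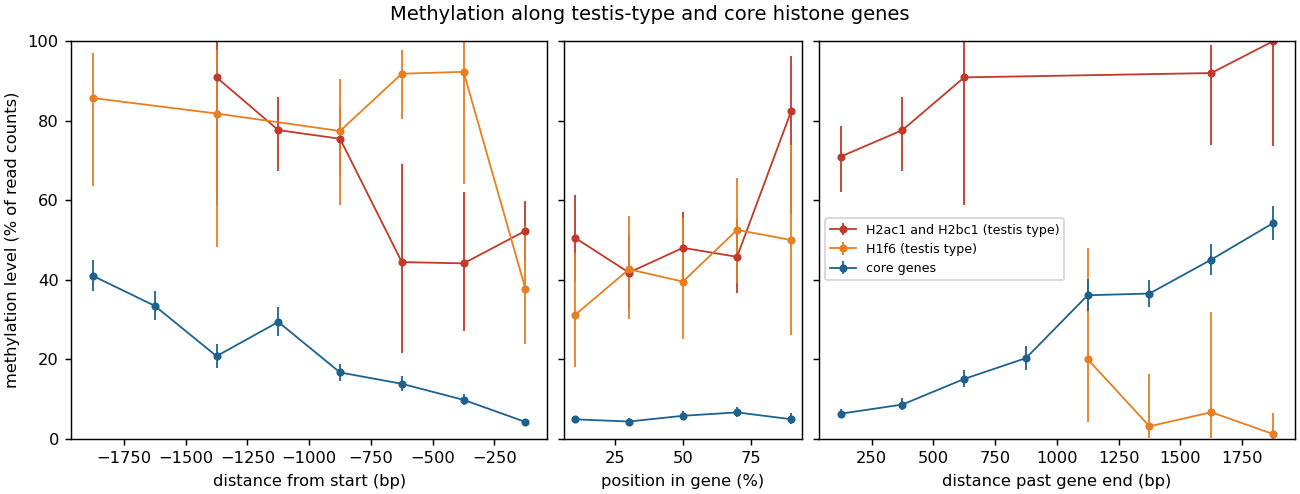
Methylation level in percent of read counts (y axis) by distance before the start in bp, by position within the gene in percent, and by distance past the gene end in bp, for H2ac1 with H2bc1, for H1f6 and for core genes of at most 1000 bp with a known strand. Points are bins with at least 10 counts, and bars are exact Clopper-Pearson 95% intervals. CpGs inside other histone genes are left out, and a CpG near several genes counts once for each. The core line stays between 4.23% and 6.63% from 250 bp before the start to 250 bp past the end, below the H2ac1 and H2bc1 line throughout.

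The contrast between H1f6 and its neighbors shows how sharply levels changed inside a cluster. The 3330 bp between H2bc4 and H1f6 had 76.6% (70.1 to 82.3%), and the 1538 bp between H1f6 and H4c3 had 14.7% (7.56 to 24.7%) over 75 counts. In steps of 250 bp by rising coordinate, the level was 91.8% at 750 to 500 bp before the H1f6 start, 37.8% in the last 250 bp before it and 30.6% in the first 250 bp after it. It was 44.3% in the next step and 60.4% from 500 to 750 bp. From 2250 to 2500 bp, where H4c3 lies, 1 of 96 counts was methylated, a level of 1.04% (0.0264 to 5.67%). Around H2ac1, the level was 78.9% at 1250 to 1000 bp before its start, 40.7% at 500 to 250 bp before it, 47.0% in the first 250 bp of the gene and 87.1% from 500 to 750 bp, past its end.

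**Figure D4:**
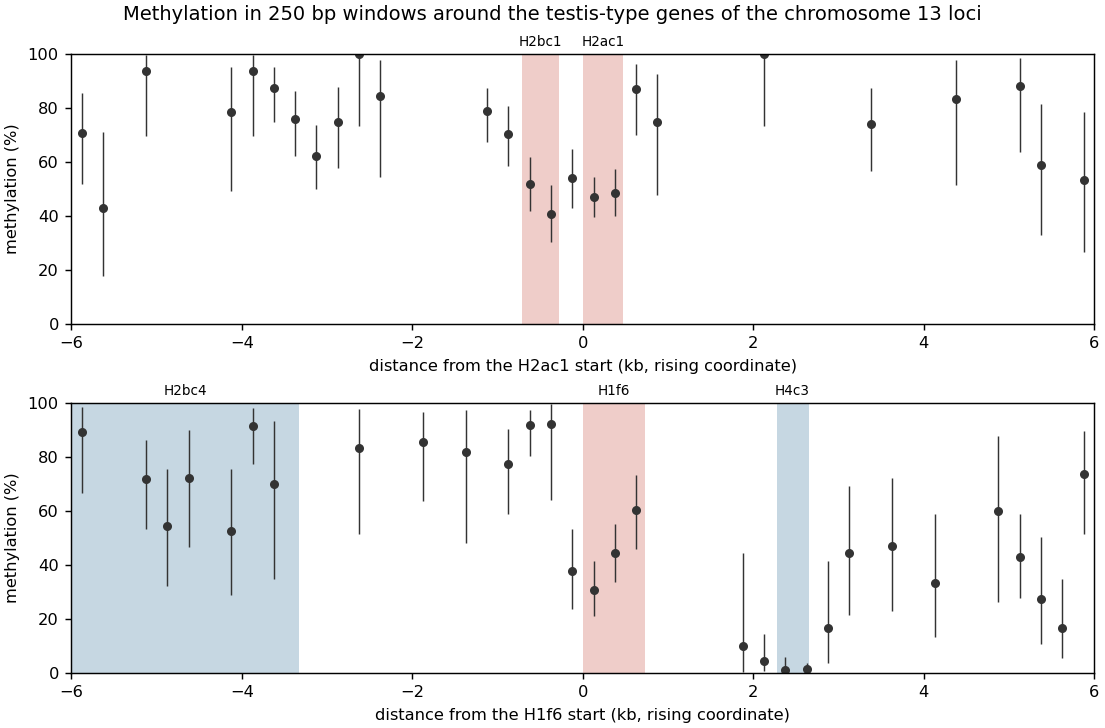
Methylation level in percent (y axis) in 250 bp windows with at least 10 counts within 6 kb of the H2ac1 start (upper panel) and of the H1f6 start (lower panel), with distance in kb by rising coordinate (x axis). Points are levels, bars exact Clopper-Pearson 95% intervals, and shading marks testis-type genes in red and core genes in blue; windows over H2ac1 and H2bc1 stay between 40.7% and 54.0% from 500 bp before to 500 bp after the H2ac1 start, while the windows over H4c3 are at 1.04% and 1.299%.

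H2A and H2B genes often lie side by side with starts that point away from each other across a short shared promoter. The H2bc1 and H2ac1 starts are 280 bp apart, against 163 to 267 bp in 9 core pairs. The testis-type pair had 51.0% (41.0 to 60.9%) between its starts. The 5 core pairs with at least 20 counts there had 0% to 7.69%, with a median of 3.45%, and 12 of 373 counts methylated when summed, a level of 3.22% (1.67 to 5.55%). The other 4 core pairs had under 20 counts and give no value.

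The promoter letters of the testis-type pair held motifs that are also found at core genes. Motifs were searched on both strands of the 300 bases around the start, for the 4 testis-type genes, 59 core genes and all 32851 RefSeq promoters, and overlaps with other motifs were allowed. TATAAA, the TATA box, was in 2 of 4 testis-type genes and 33 of 59 core genes (55.9%), against 13.6% of all promoters. CCAAT was in 3 of 4 testis-type genes and 50 of 59 core genes (84.7%), against 37.4% of all. Among core genes it was in every H1, H2A, H2B and H3 promoter searched and in 3 of 12 H4 promoters. ATTTGCAT, the octamer, was in 2 of 4 testis-type genes and in 11 of 59 core genes (18.6%), 6 of them H2A and 5 H2B genes, against 1.74% of all. AAACACA, the box known from H1 promoters, was in 3 of 4 testis-type genes, in 6 of 59 core genes and in 4 of the 5 core H1 genes, against 7.18% of all. H2ac1 and H2bc1 held all 4 motifs, within a promoter that they share, so they are not separate cases. H1f6 held CCAAT and AAACACA, and H1f7 held none of the 4.

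Members with near-identical copies had fewer of their CpGs read. The 54 members whose 300-base promoter was 60% to 80% identical to its closest member had a median of 83.8% of window CpGs read, against 40.3% for 8 members at 80% to 95% and 17.9% for 4 members at 95% or more. The promoters of H2bc23 and H4bc24 were 100% identical and neither gene was measured. H2ac23 and H2ac24 had no read at all, at 83.7% and 70.3% identity. Their promoters overlap those of H2bc23 and H4bc24, so part of each also lies in DNA with an identical copy. Identity was scored between 300-base stretches set by each gene's start, so the values of H2ac23 and H2ac24 understate this. H2ac24 is therefore counted in the group at 60% to 80%. H4c17 and H4c18 were 99.3% identical, H3c14 and H3c15 94.7%, H4c11 and H4c12 91.7%, and H2ac18 and H2ac19 85.3%. Levels of these genes, 2.93% to 10.2%, are uncertain because reads of one copy could be placed on the other. Coding sequence was the less covered part: inside core genes of at most 1000 bp 62.6% of CpGs were read, against 86.6% in the 500 bp around them. The windows of the 4 testis-type genes had 93.8% to 100% of their CpGs read, and their closest promoters were 61% to 64% identical.

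**Figure D5:**
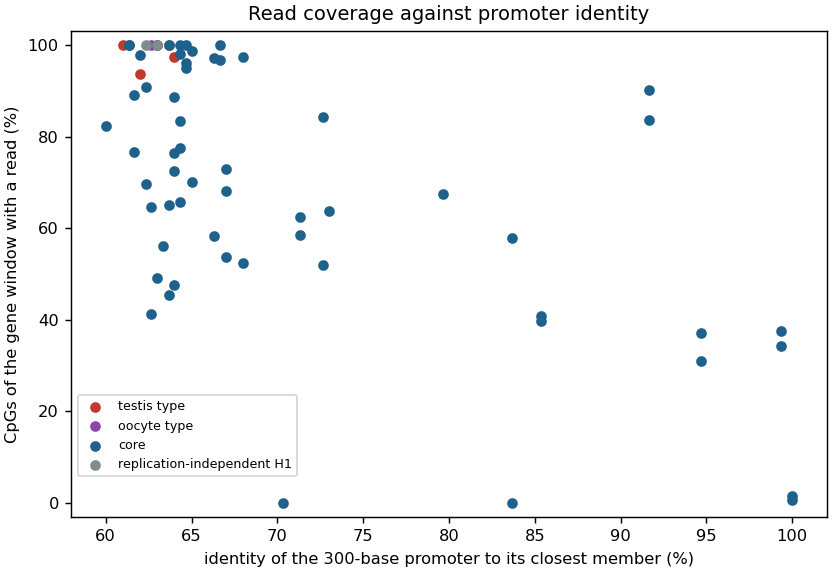
Share of CpGs in the gene window with a read in percent (y axis) against the identity of the 300-base promoter to that of its closest member in percent (x axis), for 66 members with a promoter sequence, by type. Each point is 1 gene; members at 95% identity or more had at most 37.5% of their CpGs read.

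Related genes outside the members gave a scale for these values. Within 500 bp of the start, 12 genes of sperm chromatin, the 4 testis-type members among them, had a median of 70.04%, with 0 called low, 5 intermediate and 7 high, where over all genes 61.5% were low, 5.19% intermediate and 16% high. Tnp2 and Prm1, which encode a transition protein and a protamine that replace histones in spermatids, were intermediate at 39.7% and 36.9%. Tnp1 at 77.8%, Prm2 at 78.9%, Prm3 at 72.7%, Hils1 at 67.4%, H2bl1 at 75.8% and H2al2a at 84.6% were high. The start windows of the 7 high genes held 11 to 31 CpGs and those of the 5 intermediate ones 24 to 49. The shares over all genes were not matched for CpG number.

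Genes for replication-independent variants and for the processing of histone mRNA were mostly low at their starts. Of 10 measured variant genes 8 were low and 2 unresolved, with a median of 6.18%, and H1f0 and H1f10 are on this list too. The unresolved ones were Macroh2a2 at 19.7% and H3f3b at 66.7%, the value of H3f3b from 33 counts at 9 CpGs. All 13 measured genes for histone mRNA and histone locus factors were low, with a median of 6.49% and levels of 2.22% for E2f1 to 11.5% for Pou2f1. Npat, which activates histone transcription, had 11.2%, and Slbp, which binds the stem-loop, had 6.54%. In the same window 61.5% of all genes were low.

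Of 3 histone pseudogenes measured, those beside members were low and the 1 elsewhere was intermediate. H2bu1-ps, 173 bp from a member, had 5.01% (3.77 to 6.50%) with its flanks, and H2ac14, 243 bp from a member, had 7.53% (5.06 to 10.7%). Their windows overlap those of members, so these low levels are not separate from the members' own. H2af-ps2, far from any member and annotated over more than 2000 bp, had 46.1% (42.2 to 50.04%). With 1 such pseudogene, no pattern by place can be drawn.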

How the data were processed

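Whole-genome bisulfite libraries of 2 epiblast samples were deposited as 1 table of counts: methylated and unmethylated read counts per strand of each CpG of mm10, without normalization. The submitters' processing notes name Bowtie2 2.1.0, Bismark 0.12.5 and cutadapt 1.3 without saying what each did. How the samples were pooled, whether duplicate reads were removed and the conversion rate: not given in the sources used here. Duplicates and reads placed on a near-identical copy would change the depth and the level of a histone gene. Unconverted cytosines would raise low levels.

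Strands were added, and levels are methylated over all counts. Gene positions and strands came from RefSeq tables of GRCm38.p6, whose promoter letters matched the CpG positions of the table in 66 of 66 members with an entry. The members H2aw, H2bu2, H4f16 and H4bc24 were matched by older symbols alone, and H4bc24 was classed as H2B by its older symbol. Intervals were computed with SciPy 1.17.1 and the code was tested on simulated data. Members, lists and comparisons were chosen with earlier results of these data known. Named genes were all testis-type, oocyte-type and replication-independent members, all not called low, all outside chromosomes 13 and 3, and the 2 highest and 2 lowest core genes per class. Alternatives were other depth minimums, mean CpG fractions, each strand by itself, other windows, a stricter threshold and no CpGs beyond the 99.9th percentile of depth. Start windows, newer symbols alone and short core genes alone were added after the data were seen.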

Additional observations from a re-analysis of the deposited data

How the results depend on the processing

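The number of core genes called low was 56 and ranged from 41 to 58 over 13 alternatives, the lowest with low set at under 10%, and the core median ranged from 4.01% to 7.14%. The median of testis-type genes was 57.5% on the plus strand and 47.7% without flanks, and its difference from the core median was 52.8 and 43.6 percentage points in those settings, against 48.2 as reported. Over the alternatives H2ac1 ranged from 44.7% to 55.9%, H2bc1 from 48.1% to 59.9%, H1f6 from 37.7% to 53.3% and H1f7 from 74.7% to 84.5%. With the mean of CpG fractions the summed windows came to 6.08% on chromosome 13 and 6.06% on chromosome 3, so their order held but nearly closed. The share of all autosomal genes called low was 5.81% with CpGs of at least 5 counts, 5.47% with at least 100 counts, 3.797% with mean fractions, 4.81% with flanks of 1000 bp, 1.58% with low set at under 10% and 61.5% around starts. The flank at 500 to 1000 bp had 25.9% with mean fractions and 27.6% without other genes. At 2000 to 5000 bp it had 48.1% with CpGs of at least 5 counts, 56.5% with mean fractions and 69.4% without other genes, and at 5000 to 10000 bp 41.8%, 48.0% and 51.9%. The cause of these shifts was not tested.

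No paired analysis was possible because the counts of both samples are in 1 table, and for the same reason no replicate was left out in turn. The data give the spread over CpGs and genes within this table, not between embryos. Depth limits single CpGs, and copies with near-identical sequence had few reads or none.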
